A study of Mus musculus with 2 samples.

Results

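Microglia are the resident macrophages of the brain, and in these thalamus nuclei they were a small class of 148 among 38150 kept nuclei. A nucleus was counted as microglial when its UMIs (unique molecular identifiers, 1 per captured transcript) of Cx3cr1, Csf1r, P2ry12, Inpp5d, C1qa, C1qb and Ly86 summed to at least 3 and to at least 0.2% of its total. Its total also had to be under 5000 UMIs, with no UMI of Slc17a6, Gad1 or Gad2, the genes that mark glutamatergic and GABAergic neurons. Nuclei were kept with 200 to 7500 genes and at most 2% mitochondrial UMIs. The rule gave 21 microglial nuclei of 16373 in the sham library and 127 of 21777 in the injury library. The members were thus chosen by the summed level of 7 genes, whose values below are a description of the choice.

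The samples were thalamus of female C57BL/6J mice operated on at 3 months of age and collected on day 21. The injury group had cortical ablation injury (CAI), in which sensory and motor cortex was removed from 1 side by surgery, and the sham group had a sham operation without ablation. Thalamus of the operated side was used. Each group was a pool to which 4 mice gave the same number of nuclei, and flow sorting on a DNA dye preceded library preparation. Each group was 1 library of 1 such pool, so no test between the groups was possible and all intervals given here are 95% intervals that cover counting error only, not the spread between mice.

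Healthy microglia sense nucleotides, fractalkine and complement through receptors such as P2ry12 and Cx3cr1, survive on signals through the receptor Csf1r, and depend on the transcription factor PU.1 (gene Spi1). When neurons or axons degenerate, microglia are known to lower these homeostatic genes and to raise a disease-associated set that includes Apoe, Trem2 and Cd9, together with genes for lysosomes and lipid handling. A nucleus holds mostly newly made RNA, so genes whose transcripts sit mainly in the cytoplasm give few UMIs.

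The deposited libraries held 137850696 sham and 180106314 injury UMIs, and kept nuclei had medians of 7190 and 6810 UMIs. Microglial nuclei were far shallower, with medians of 1262 UMIs and 902 genes in sham and 1117 UMIs and 846 genes in injury, and they gave 25688 and 166817 UMIs in all. The libraries shared 101 barcodes, of which 1 belonged to a sham microglial nucleus and none to an injury one. Near the limit of the rule, 1 sham and 13 injury nuclei had exactly 3 UMIs of the 7 genes and were counted, while 2 sham and 5 injury nuclei with exactly 2 UMIs were not. Levels are given as CPM, the UMIs of a gene or list scaled to a fixed total of all UMIs of the nuclei in question. Just inside, microglial genes that the rule did not use summed to 22191 CPM in sham and 14506 CPM in injury. Just outside, they summed to 17534 and 7440 CPM. A further 3 sham and 12 injury nuclei met every condition except that on the neuronal genes.

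Sequences at the start sites of 5 genes named in the results are shown: Inpp5d and P2ry12 of the rule, the disease-associated genes Cd9 and Apoe, and the lysosomal protease gene Ctsd. Each is the RefSeq promoter window on GRCm38.p6, from 250 bases before to 50 bases after the transcript start, written in the direction of the gene. Inpp5d (chr1:87620062-87620361, plus strand) encodes the lipid phosphatase SHIP1, and P2ry12 (chr3:59262936-59263235, minus strand) the ADP receptor of microglial processes. Cd9 (chr6:125494711-125495010, minus strand) encodes a tetraspanin of the cell surface, Apoe (chr7:19699139-19699438, minus strand) a lipid carrier, and Ctsd (chr7:142387778-142388077, minus strand) cathepsin D. Capitals mark AGGAAGT or its longer form GAGGAAGT, a purine box that PU.1 can bind, and CACGTG, an E-box that MITF and TFEB can bind.
Inpp5d: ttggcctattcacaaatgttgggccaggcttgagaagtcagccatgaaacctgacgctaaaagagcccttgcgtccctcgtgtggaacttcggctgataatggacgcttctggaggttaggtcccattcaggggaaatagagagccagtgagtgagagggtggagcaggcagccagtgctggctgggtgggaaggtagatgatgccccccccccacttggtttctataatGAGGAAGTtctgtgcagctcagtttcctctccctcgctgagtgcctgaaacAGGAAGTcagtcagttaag
P2ry12: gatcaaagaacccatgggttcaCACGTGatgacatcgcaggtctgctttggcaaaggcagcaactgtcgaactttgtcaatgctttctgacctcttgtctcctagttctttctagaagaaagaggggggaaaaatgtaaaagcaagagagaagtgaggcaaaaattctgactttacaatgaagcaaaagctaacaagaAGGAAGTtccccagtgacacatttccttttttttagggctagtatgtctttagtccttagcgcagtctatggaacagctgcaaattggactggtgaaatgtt
Cd9: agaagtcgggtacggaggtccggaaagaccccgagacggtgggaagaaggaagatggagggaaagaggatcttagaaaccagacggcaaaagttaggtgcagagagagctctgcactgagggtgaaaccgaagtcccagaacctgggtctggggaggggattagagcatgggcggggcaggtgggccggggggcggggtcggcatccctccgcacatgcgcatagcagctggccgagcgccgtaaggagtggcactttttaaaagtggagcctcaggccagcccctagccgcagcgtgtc
Apoe: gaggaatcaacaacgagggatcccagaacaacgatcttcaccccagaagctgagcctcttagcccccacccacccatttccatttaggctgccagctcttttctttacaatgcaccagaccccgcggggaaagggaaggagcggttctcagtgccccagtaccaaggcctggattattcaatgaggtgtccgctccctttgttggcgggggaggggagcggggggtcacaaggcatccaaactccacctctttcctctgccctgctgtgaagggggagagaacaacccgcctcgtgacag
Ctsd: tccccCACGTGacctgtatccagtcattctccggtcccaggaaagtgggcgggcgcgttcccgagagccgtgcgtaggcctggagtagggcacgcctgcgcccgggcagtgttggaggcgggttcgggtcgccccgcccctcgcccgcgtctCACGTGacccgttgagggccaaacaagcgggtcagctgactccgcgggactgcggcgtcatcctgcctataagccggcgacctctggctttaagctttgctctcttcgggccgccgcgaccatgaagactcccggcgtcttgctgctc

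Searched on both strands, AGGAAGT was in 9.35% of all 32851 windows, in 3 of the 5 rule genes with a window (C1qb, Inpp5d and P2ry12) and in 7 of 14 further microglial genes. The longer GAGGAAGT was in 3.2% of all windows, in 1 of the 5 and in 3 of the 14. AGGAAGT was also in 5 of 19 lysosomal genes, 3 of 10 homeostatic genes and 3 of 23 disease-associated genes with a window, and GAGGAAGT in 3 of the 19 lysosomal genes. The E-box CACGTG was in 7.15% of all windows and in 4 of 19 lysosomal genes (Ctsa, Ctsd, Ctsl and Lamp1), but also in 2 of 10 homeostatic genes (P2ry12 and Siglech), 1 of the 5 rule genes and 2 of 23 disease-associated genes (Ctsd and Ctsl). The Cd9 and Apoe windows held neither motif. The percentages of all windows count each window, while the list counts are of genes with a match in any of their windows. A gene can have several windows, so the 2 are not in the same unit. The 7-letter form was chosen after several lengths had been counted, and a match of letters is not a measured binding site.

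The label was checked against genes that the rule did not use. The microglial list outside the rule summed to 18647 CPM (17014 to 20394) in sham and 15484 CPM (14893 to 16093) in injury microglia, against 155 and 169 CPM in the other nuclei of each library. Every microglial nucleus held at least 3 UMIs of these genes. Among genes with at least 50 UMIs in injury microglia, those with the highest level over the other nuclei of the library were Inpp5d, the interferon regulatory factor Irf8, the lincRNA AC102342.2, the lymphoid and myeloid factor Ikzf1, the transporter Slco2b1 and the lectin Siglech. Irf8 is a factor that microglia need. Of all Irf8 UMIs in the injury library, 56.0% were in the 127 microglial nuclei, and the like shares were 53.3% for Ikzf1 and 52.0% for Siglech. Fcrls, Fyb, Runx1, Dock8, Itgam, Csf3r, Arhgap45 and Cd84, all genes of the myeloid or blood lineage, followed at shares of 45.0% to 47.7%. Cells were chosen by correlated genes, so these levels describe the class and are no test of it.

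Transcripts of other cell types were also counted in these nuclei. None of the 7 lymphocyte markers had a UMI in any of the 148 nuclei. Border and blood macrophage markers gave 28 sham and 40 injury UMIs, and 23 of the 28 came from 1 sham nucleus. Lyve1, Cd163, Pf4, Ccr2 and Ly6c2 were at 0 in both libraries, while F13a1, a macrophage transglutaminase gene, had 10 sham UMIs and none in injury. Neuron markers summed to 1908 CPM in sham and 2799 CPM in injury microglia, against 18176 and 18577 CPM in nuclei with neuronal UMIs, and 1 injury nucleus alone held 54 of 467 such UMIs. Neuron marker UMIs were in 18 of 21 sham and 117 of 127 injury nuclei. Oligodendrocyte markers gave 9 sham UMIs and 178 injury UMIs, in 7 of 21 and 50 of 127 nuclei. That was 1067 CPM in injury microglia, against 499 CPM in the other injury nuclei and 14231 CPM in oligodendrocyte-like nuclei, and 7 injury nuclei with at least 3 each reached up to 32. Several results are set beside their values without the 2 sham and 9 injury nuclei that carried such transcripts (at least 3 oligodendrocyte UMIs, at least 5 macrophage UMIs, or as many neuronal as microglial UMIs). That left 19 sham and 118 injury nuclei.

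Microglia made up 0.128% of kept nuclei in sham (exact binomial interval 0.0794 to 0.196) and 0.583% in injury (0.486 to 0.693). The share was 4.55-fold higher in the injury library (2.85 to 7.60). By the analogous rule from their own markers, astrocyte-like nuclei went from 1.07% to 1.97% (1.83-fold, 1.53 to 2.19) and oligodendrocyte-like nuclei from 5.85% to 10.1% (1.73-fold, 1.60 to 1.86). The microglial interval lay above both. With a rule share of at least 0.5%, the share also asked of the other 2 classes, the microglial ratio was 3.60-fold (2.18 to 6.25), and its interval then overlapped that of the astrocyte-like nuclei. Without the 11 mixed nuclei the microglial ratio was 4.67-fold (2.86 to 8.03). The rule counts Ly86, of which a UMI was found in 9 of 21 sham and 98 of 127 injury microglia. No count of members without Ly86 was made, so its part in the ratio was not tested. A share depends on every other class of the library, and the number of microglia in the tissue was not measured.

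**Figure D1:**
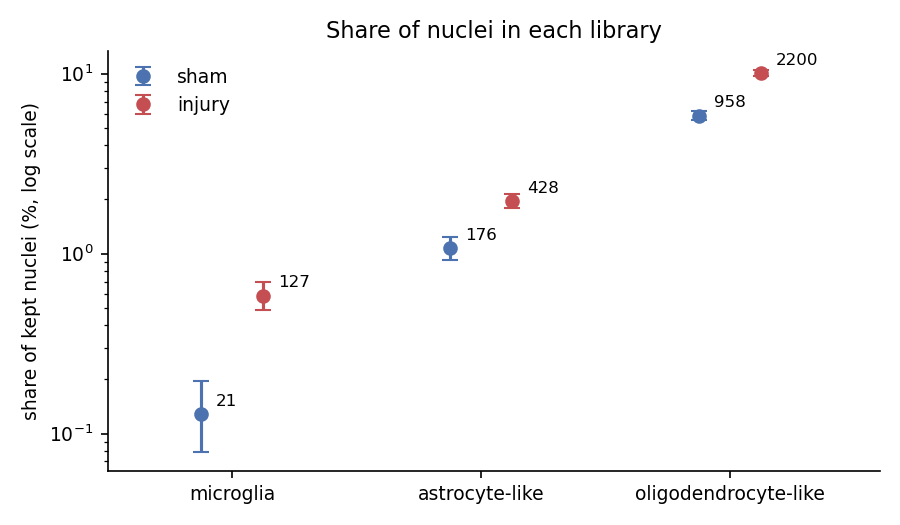
Share of kept nuclei (percent, log axis) that were microglia, astrocyte-like or oligodendrocyte-like in the sham and injury libraries, with exact 95% binomial intervals and the number of nuclei beside each point. All 3 classes took a larger share of the injury library, and the distance was largest for microglia, 0.128% against 0.583%.

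For gene levels, UMIs were summed over the microglia of a library, scaled to the sum of all their UMIs, and compared as a ratio of injury over sham on the log2 scale. Of 2227 genes with at least 20 UMIs, 332 were at least 2-fold higher in the injury library (14.9%) and 197 at least 2-fold lower (8.85%), with a prior of 0.5 UMI added to each count. A call of 2-fold is used in this sense throughout, and for the 76 tested genes with no sham UMI it depends on the prior. The counting interval lay above no difference for 96 genes (4.31%) and below it for 120 (5.39%). These shares are the background for every count of list genes below. With another scaling, the trimmed mean of M-values (TMM) of edgeR, every log2 ratio rose by 0.48. The median over all tested genes then went from -0.08 to 0.40, and 540 genes were 2-fold higher and 53 lower, with 285 intervals above and 28 below no difference. A log2 ratio of injury over sham between -0.48 and 0 in the text below thus turned positive under TMM. The split of the calls also turned when nuclei were thinned to 500 UMIs (430 higher, 436 lower) and with a prior of 2 UMIs (92 higher, 317 lower).

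Disease-associated genes were higher in the injury library. Over the list, 37 UMIs were counted in sham and 805 in injury. This was 1440 CPM (1014 to 1985) in the sham library, and in the injury library 4826 CPM (4498 to 5171). The log2 ratio of the sums was 1.74 with an interval of 1.27 to 2.26. Of 27 genes, 11 reached 20 UMIs, 6 of these were called 2-fold higher and none 2-fold lower. Of the 6, Igf1, Csf1 and Gpnmb had no sham UMI, and the bounds of Csf1 and Gpnmb below are under 2-fold. For 5 the interval lay above no difference, against 4.31% of all genes. The median log2 ratio was 2.32, and 0.96 when the 3 genes with no sham UMI were put at their lower bound, against -0.08 over all genes. The limit of 20 UMIs is on the sum of both libraries. Apoe, Cd9, Igf1, Csf1 and Gpnmb passed it through their injury UMIs alone, so the median leans on genes that are high there. With a limit of 1 UMI it was 0.96 over 25 genes, against -0.38 over all genes. Without the mixed nuclei the sum had 30 sham and 710 injury UMIs, a ratio of 1.85 (1.33 to 2.43), and the median was 1.45.

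Among the carriers of lipid and the surface proteins, Apoe (chromosome 7, start 19696109, end 19699188) had 1 UMI in sham (38.9 CPM) and 82 in injury (492 CPM). Its ratio was 12.6-fold with an interval of 2.20 to 505. Cd9 (chromosome 6, start 125460266, end 125494791) was 12.3-fold higher (2.15 to 493), with 1 UMI in sham and 80 in injury. Both genes were thus higher in the injury microglia, by an amount that the single sham UMI of each leaves very uncertain. In flow cytometry, the study marks the state it follows by high CD9 and low Tmem119 protein. It reports that this state overlaps the disease-associated one in gene expression, and proposes that the 2 differ in function. Ank, which encodes a pyrophosphate exporter, was 5.58-fold higher (2.13 to 20.8), with 4 UMIs in sham and 145 in injury. The growth factor genes Igf1 (0 and 55 UMIs) and Csf1 (0 and 36 UMIs), the second of which encodes a ligand of Csf1r, had no sham UMI. Against the floor of 3 sham UMIs that a count of 0 allows, Igf1 was at least 2.82-fold and Csf1 at least 1.85-fold higher, while the lower ends of their counting intervals were 2.22-fold and 1.43-fold. Gpnmb, a glycoprotein of lysosomes and the cell surface, had 0 and 22 UMIs, and 13 of the 22 were in 1 of its 7 nuclei. The floor put Gpnmb at 1.13-fold, and at 0.917-fold without the mixed nuclei, and its counting interval began at 0.844-fold and so included no difference.

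Other members were less clear. Trem2, the lipid-sensing receptor that the disease-associated state depends on, had 2 sham and 31 injury UMIs, a log2 ratio of 1.26 whose interval of -0.72 to 4.36 included no difference. The same held for the cathepsin genes Ctsz (1.26, -0.72 to 4.36), Ctsd (0.89, -0.31 to 2.38) and Ctsb (-0.08, -1.17 to 1.21), and for the ferritin gene Fth1 (0.32, -0.74 to 1.59). Ctsb turned to 0.39 under TMM and to 0.097 without the mixed nuclei. The Ctsd interval lay above no difference under TMM (0.17 to 2.86) but not without the mixed nuclei (-0.57 to 2.14). Of the 15 further genes with a row, Cd52 had no UMI in either library. The other 14 had 0 to 2 sham and 3 to 18 injury UMIs, among them Axl (0 and 18), Lpl and Itgax (each 0 and 12), Spp1 (0 and 11) and Tyrobp (2 and 10). Clec7a was not analysed here.

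Homeostatic genes were lower at the scaling to all UMIs, by a smaller amount. The list gave 344 UMIs in sham, which was 13392 CPM (12014 to 14884). In injury it gave 1621 UMIs, which was 9717 CPM (9250 to 10202). On the log2 scale the sums differed by -0.46, with an interval of -0.63 to -0.29. Of 11 measured genes, 2 were 2-fold lower and none 2-fold higher. For 5 the interval lay below no difference, against 5.39% of all genes, and the median was -0.41. This direction did not hold under TMM, where the median was 0.07, the summed ratio 0.01 and 1 interval lay on each side. Since 3 of the 15 genes belong to the rule, the 12 others are given apart. Their median over 8 measured genes was -0.31 (0.17 under TMM), with 3 intervals below no difference.

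Gpr34, a lysophosphatidylserine receptor on the X chromosome (start 13632089, end 13640858), had 30 UMIs in sham (1168 CPM) and 43 in injury (258 CPM). Its log2 ratio of -2.18 (-2.89 to -1.46) was the lowest of the list and stayed below no difference under TMM (-1.70, -2.41 to -0.98). UMIs of Gpr34 were found in 14 of 21 sham and 35 of 127 injury nuclei, so the difference was not carried by a few nuclei. The gene lies within Cask on the opposite strand, and whether counting used the strand was not given in the sources used here. Selplg, a selectin ligand, was at -1.20 (-1.91 to -0.45) and Siglech at -0.86 (-1.43 to -0.26), and under TMM at -0.72 and -0.38, with intervals that reached above no difference. Tgfbr1, the receptor for the homeostatic signal TGF-beta, gave more UMIs than the others, 78 and 439, and did not differ beyond counting error (-0.21, -0.56 to 0.16, and 0.27 under TMM). Tmem119, below the limit of 20 UMIs, had 7 UMIs in sham (272.5 CPM) and 12 in injury (71.9 CPM). Its log2 ratio was -1.92 (-3.38 to -0.34), and under TMM -1.44 with an interval that reached 0.14.

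The 7 genes of the rule did not move together. Csf1r went from 1518 to 947 CPM (39 and 158 UMIs, log2 ratio -0.68, -1.19 to -0.14) and P2ry12 from 1246 to 707 CPM (32 and 118 UMIs, -0.82, -1.39 to -0.20). Under TMM they were at -0.20 and -0.34, with intervals that included no difference. P2ry12 overlaps Med12l on the opposite strand, and its UMIs were also found in 46.3% of injury nuclei with neuronal UMIs, or 4.16% at 500 UMIs, against 29.4% of injury microglia at that depth. Ly86, a partner of the toll-like receptor relative Rp105, was higher, at 623 CPM in sham and 1876 CPM in injury (16 and 313 UMIs, 1.59, 0.87 to 2.42). Cx3cr1 (23 and 142 UMIs) was at -0.07 and Inpp5d (69 and 341 UMIs) at -0.39, both with intervals reaching 0.00 or above, and both turned positive under TMM. C1qa and C1qb, chains of the complement protein C1q, had 3 and 35 and 2 and 30 UMIs. These levels are set in part by the rule, which demands UMIs of these genes from every member.

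**Figure D2:**
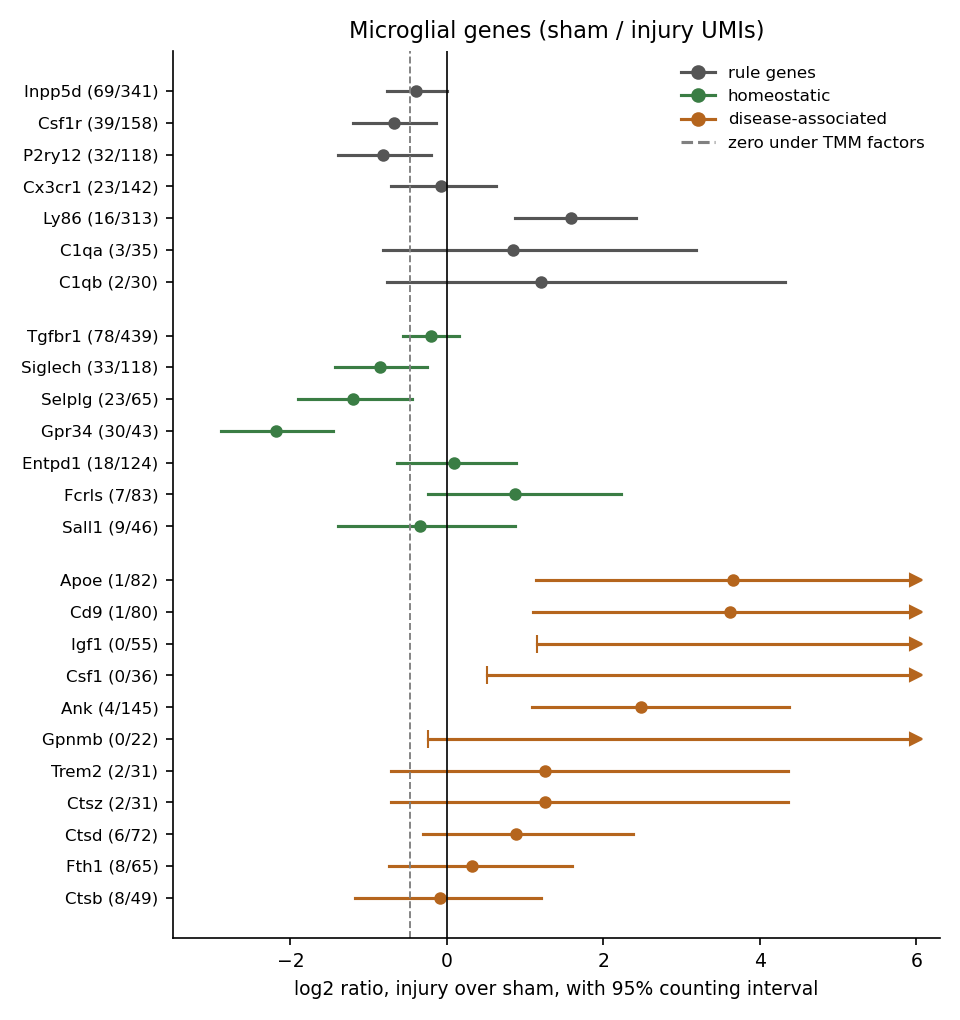
Log2 ratio of injury over sham in microglia for 25 genes of the rule, homeostatic and disease-associated lists, with 95% counting intervals and the sham and injury UMIs beside each name. Igf1, Csf1 and Gpnmb had no sham UMI, so only the lower end of the interval is drawn, and arrows mark intervals that run past the axis. The dashed line is where no difference lies under TMM factors. Gpr34 and Selplg lay furthest to the left and Apoe and Cd9 furthest to the right.

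A nucleus of lower depth shows fewer genes, and free RNA can put UMIs into any nucleus, so detection was set beside other classes at an equal depth of 500 UMIs, which every one of these nuclei reached. A Cd9 UMI was found in 39 of 127 injury microglia (30.7%, 22.8 to 39.5) and in 1 of 21 sham microglia (4.76%, 0.12 to 23.8), with median depths of 1117 and 1262 UMIs. Nuclei with neuronal UMIs had a Cd9 UMI in 1.61% of 13050 injury nuclei at a median depth of 8902 UMIs. At 500 UMIs the expected shares were 18.1% of injury microglia, 3.3% of sham microglia, 0.145% of injury neuronal nuclei and 4.03% of injury oligodendrocyte-like nuclei. Cd9 in injury microglia was thus above the level in each of these classes. For Apoe the shares at equal depth were 16.5% of injury microglia, 3.8% of sham microglia, 2.1% of injury neuronal nuclei and 21.0% of injury astrocyte-like nuclei, which are its main source in brain. Igf1 was at 12.02% in injury microglia and 1.64% in neuronal nuclei. Ank was at 23.8% in injury microglia and also at 18.1% in oligodendrocyte-like nuclei, so its UMIs mark no cell type. Gpr34 went the other way, from 43.6% of sham to 12.6% of injury microglia, with 0.307% in injury neuronal nuclei.

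**Figure D3:**
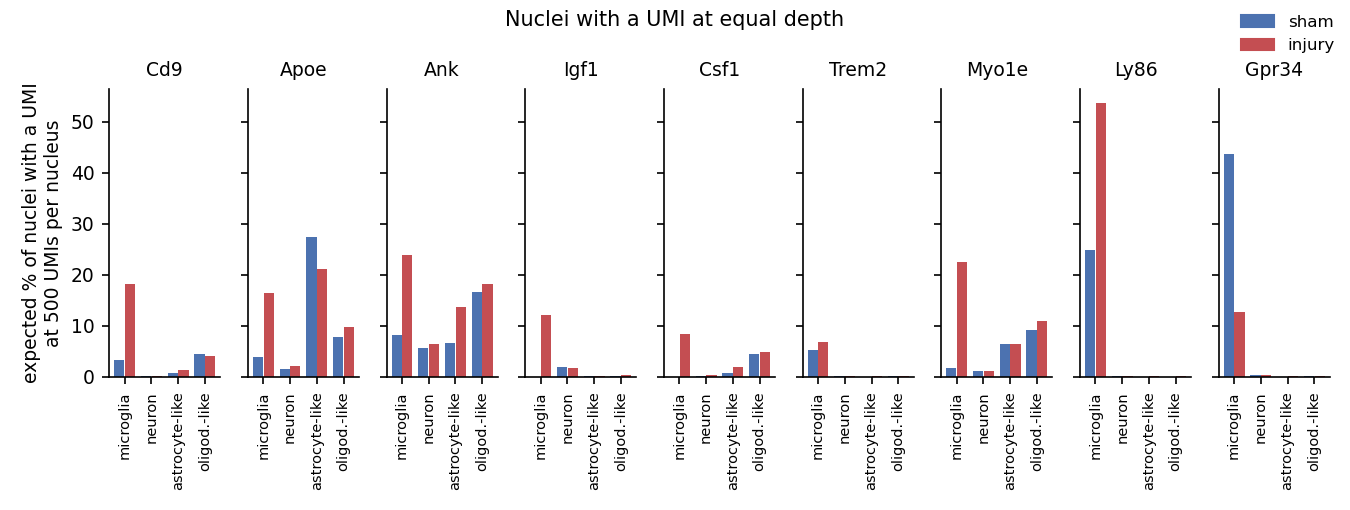
Expected percentage of nuclei with at least 1 UMI of a gene when every nucleus is thinned to 500 UMIs, for 9 genes in microglia, nuclei with neuronal UMIs, astrocyte-like and oligodendrocyte-like nuclei of the sham and injury libraries. In microglia, bars were higher in injury for Cd9 (3.3% to 18.1%), Apoe and Ly86, and lower for Gpr34 (43.6% to 12.6%).

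The disease-associated transcripts were spread unevenly over the injury nuclei. In sham, the list took a median of 0.11% of the UMIs of a nucleus and at most 0.555%, with 5 of 21 nuclei at 0. In injury, the median was 0.33% and the highest 1.90%, with 16 of 127 nuclei at 0. A share above the highest sham nucleus was found in 44 of 127 injury nuclei (34.6%). UMIs of at least 4 genes of the list were held by 52 of 127 injury but 0 of 21 sham nuclei. These counts are at full depth and include the mixed nuclei. Median depth was 1262 UMIs in sham and 1117 in injury, but the deepest nuclei had 2058 and 3903. The homeostatic list spanned 0.26% to 2.21% of UMIs in sham and 0.05% to 2.02% in injury nuclei, with medians of 1.44% and 0.99%. The sham low end came from a mixed nucleus, the one with 23 macrophage UMIs, which held 4 homeostatic UMIs of 1560. The nuclei of the 2 libraries thus overlapped, but how far they did at the low end depends on that nucleus. Injury nuclei at both ends were present, those near sham levels and those with many disease-associated UMIs.

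**Figure D4:**
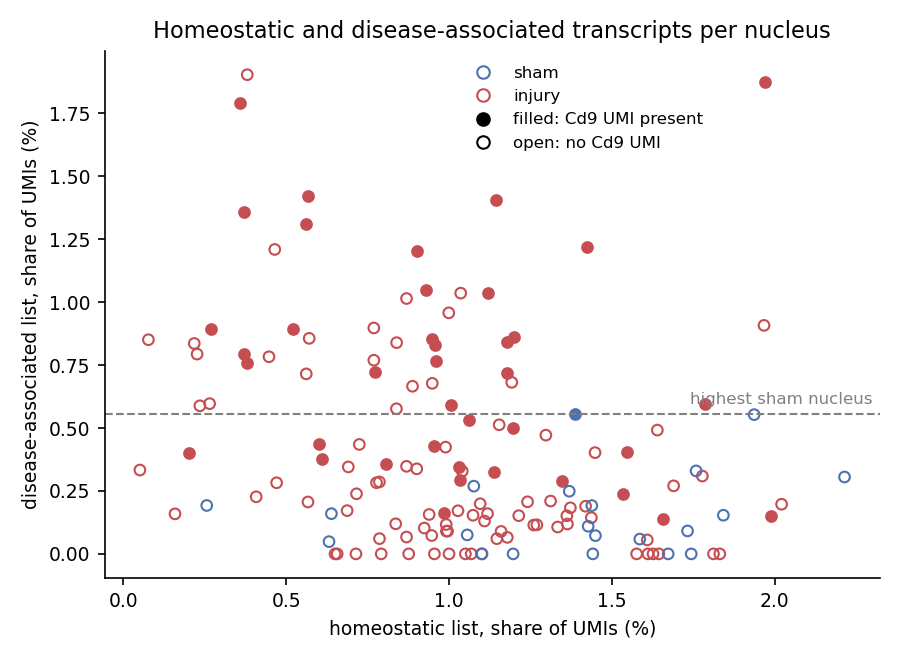
Share of UMIs in the homeostatic list (horizontal axis, percent) and in the disease-associated list (vertical axis, percent) for each of 21 sham and 127 injury microglial nuclei. Filled points had a Cd9 UMI, and the dashed line is the highest sham nucleus, above which 44 injury nuclei lay.

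When injury nuclei were ordered by their disease-associated share and cut into 3 parts of 42, 42 and 43 nuclei, the homeostatic list was lower towards the high end. It took 11774 CPM (10828 to 12780) in the lowest part, 9799 CPM (9000 to 10651) in the middle and 8031 CPM (7340 to 8769) in the highest. The lysosome list went the other way, with 4062, 5050 and 7643 CPM, and it shares cathepsin genes with the list used for the order. Oligodendrocyte markers took 392, 1506 and 1196 CPM and neuron markers 2619, 3296 and 2488 CPM, and their part in these differences was not tested. Microglial genes outside the rule took 17135, 15257 and 14397 CPM, and the rule genes 6743, 6822 and 6867 CPM. Median depth was 1085.5, 1105 and 1160 UMIs in the 3 parts. Because all lists share 1 total in a nucleus, these values describe 1 library.

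Injury nuclei with and without a Cd9 UMI were compared, since the study reports Cd9 RNA as enriched in the state it follows. The study first identifies that state as a cluster of single-cell RNA profiles. High CD9 and low Tmem119 protein mark it in flow cytometry. The 39 nuclei with Cd9 had a median of 1176 UMIs and the 88 without had 1070.5. Without counting Cd9 itself, disease-associated genes summed to 6081 CPM with Cd9 and 3392 CPM without, a log2 ratio of 0.84 (0.63 to 1.06). Lysosomal genes were also higher, at 6689 and 5195 CPM (0.36, 0.18 to 0.55). Homeostatic genes did not differ beyond counting error, at 9982 and 9571 CPM (0.06, -0.09 to 0.21). At 500 UMIs per nucleus the 3 ratios were 0.66, 0.33 and -0.09, and without the mixed nuclei 0.91, 0.39 and 0.03. Neuron markers were lower with Cd9 (-0.45, -0.75 to -0.16), which narrowed to -0.28 (-0.61 to 0.04) without the mixed nuclei.

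Single genes that went with Cd9 were Trem2 (19 UMIs with Cd9 and 12 without, 2.88-fold, 1.33 to 6.50), Csf1 (21 and 15, 2.54-fold, 1.25 to 5.31) and Ank (82 and 63, 2.37-fold, 1.68 to 3.34). Apoe did not (31 and 51, 1.10-fold, 0.68 to 1.76). Gpnmb had 17 UMIs with Cd9 and 5 without, but 13 of the 17 were in 1 nucleus, and it was detected in 3 of 39 nuclei with Cd9 and 4 of 88 without. An Apoe UMI was found in 13 of 39 nuclei with Cd9 and in 25 of 88 without, while a Trem2 UMI was found in 15 of 39 and 9 of 88. Axl, a phosphatidylserine receptor gene that the study follows, had UMIs in 10 of 39 and 6 of 88, and Spp1, which encodes osteopontin, in 6 of 39 and 1 of 88. Lower with Cd9 were Cx3cr1 (0.64-fold, 0.43 to 0.94), the kinase gene Lyn (0.68-fold, 0.49 to 0.92) and Elmo1 (0.75-fold, 0.61 to 0.92), which acts in engulfment. At 500 UMIs per nucleus the intervals of all 3 included no difference (Cx3cr1 0.26 to 1.18, Lyn 0.47 to 1.30, Elmo1 0.62 to 1.22), while that of Ank did not (2.15-fold, 1.11 to 4.17). Of 15 UMIs of cell division genes in injury microglia, 13 were in nuclei with Cd9. They came from 6 nuclei, 4 of them with Cd9, and the most in 1 nucleus was 4, so they count few cells.

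**Figure D5:**
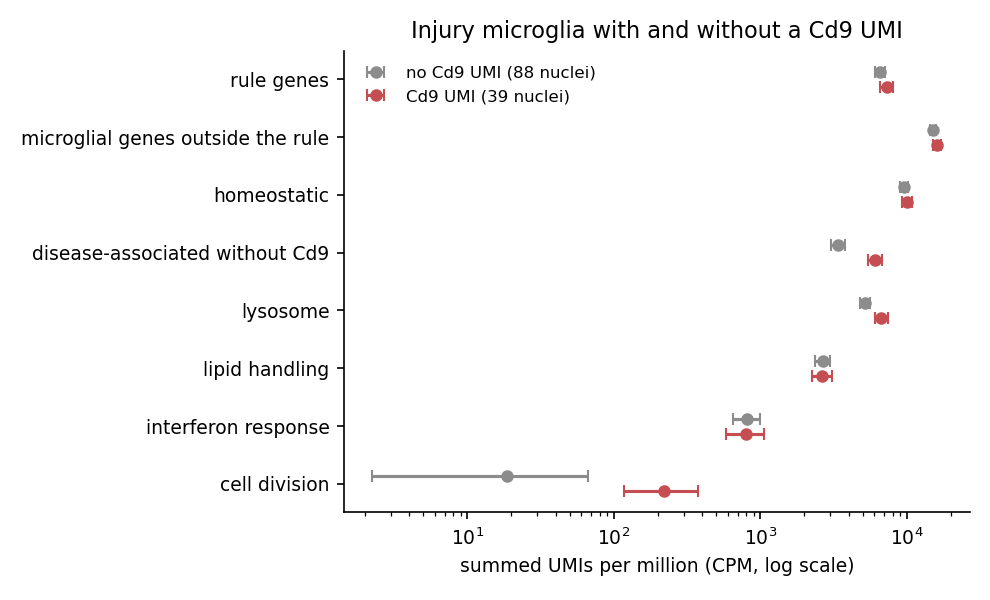
Summed level (CPM, log axis) of 8 gene lists in injury microglia with a Cd9 UMI (39 nuclei) and without (88 nuclei), with exact 95% Poisson intervals. The intervals were apart for disease-associated genes without Cd9 (6081 and 3392 CPM), lysosomal genes and cell division genes, and overlapped for the homeostatic list.

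Genes of lysosomes, where engulfed material is broken down, summed to 117 sham and 955 injury UMIs, a log2 ratio of 0.33 (0.05 to 0.62), while their median was -0.08 (0.40 under TMM). Of 11 measured genes 3 were called 2-fold higher, namely the transcription factor gene Mitf, Hexa and Gusb. Mitf, a regulator of lysosomal genes, was at 1.10 (0.37 to 1.93) with 16 UMIs in sham and 223 in injury, and was the 1 gene of the list whose interval lay above no difference. Hexa (1 and 25 UMIs) was at 1.94 (-0.67 to 7.30), and Gusb had 0 and 20, which against the floor of 3 sham UMIs was 1.03-fold, and 0.968-fold without the mixed nuclei. Lipid handling genes had a median of -0.38 over 5 genes (0.10 under TMM) and a summed ratio of 0.10 (-0.29 to 0.50). Beside Apoe, the cholesterol exporter gene Abca1 (19 and 97 UMIs) was at -0.35 (-1.07 to 0.45), which turned to 0.13 under TMM and to 0.11 without the mixed nuclei, and Abcg1 (1 and 23 UMIs) at 1.82 (-0.80 to 7.19).

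Of complement genes, the receptor gene Itgam (6 and 59 UMIs) was at 0.60 (-0.61 to 2.10). C3 and C4b had no UMI in microglia of either library. Fc receptor and Syk signalling genes summed to 165 and 770 UMIs, a ratio of -0.48 (-0.72 to -0.23), which was 0.00 under TMM. Lyn was at -0.61 (-1.05 to -0.15) and the phospholipase gene Plcg2 at -0.96 (-1.82 to -0.02). Under TMM they were at -0.13 and -0.49, with intervals that included no difference, while Syk, the kinase behind these receptors, had 5 and 30 UMIs and was at -0.11 (-1.49 to 1.61), which turned to 0.36 under TMM and to 0.15 without the mixed nuclei. The Fc receptor gene Fcgr3 had 3 and 14 UMIs. Of the genes for phosphatidylserine recognition and engulfment, 8 were measured and none was 2-fold changed. Mertk, a receptor for apoptotic cells, was at -0.12 (-0.51 to 0.30) with 61 and 365 UMIs (0.36 under TMM, and 0.08 without the mixed nuclei).

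Transcription factor genes of microglia had a median of -0.28 over 15 measured genes (0.19 under TMM) and a summed ratio of -0.06 (-0.24 to 0.13), which was 0.42 under TMM. Spi1 (9 and 37 UMIs) was at -0.66 (-1.74 to 0.58) and Runx1 (41 and 221 UMIs) at -0.27 (-0.75 to 0.25, and 0.21 under TMM). Irf8 was at 1.28, with an interval whose lower end was at 0.00 and whose upper end was at 2.94, from 5 and 79 UMIs, and without the mixed nuclei at 1.56 (0.14 to 3.47). Mef2a was lower, at -0.63 (-1.03 to -0.21), and at -0.15 under TMM, where its interval included no difference. Interferon response genes summed to 7 sham and 134 injury UMIs, a ratio of 1.56 (0.48 to 2.90), found in 5 of 21 and 63 of 127 nuclei. Without the mixed nuclei they had 4 and 121 UMIs and a ratio of 2.21 (0.82 to 4.11). Of the 19 genes, 2 reached 20 UMIs, among them Trim30a (3 and 27 UMIs), and neither interval lay above no difference, also under TMM, while Ifit1, Ifit3, Isg15 and Rsad2 had none.

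The list of cytokines, chemokines and sensors summed to 23 sham and 191 injury UMIs, a log2 ratio of 0.35 (-0.27 to 1.05). Of its 4 measured genes, 2 had no sham UMI. These were Igf1 and Csf1, which are also in the disease-associated list. The median was 1.34, and 0.04 when these 2 genes were put at their lower bound. Other cytokine genes gave few UMIs. Tnf had 1 and Il6 had 1, both in injury, and Il1b, Il10 and Ccl2 had none. The RNA sensor gene Tlr7 was lower (12 and 27 UMIs, -1.53, -2.56 to -0.41). Under TMM it was at -1.05 with an interval that reached 0.06. The co-stimulator gene Cd86 was at -0.85 (-1.62 to -0.01), or -0.37 under TMM. The class II antigen presentation genes H2-Ab1, H2-Eb1 and Cd74 had 0 sham UMIs and 2, 3 and 2 injury UMIs, and H2-Aa had none. Among purinergic receptors and ion channels, P2rx4, an ATP-gated channel gene, was at 1.16 (-0.82 to 4.27), or 2.10 (-0.50 to 7.45) from 1 and 28 UMIs without the mixed nuclei, and Kcnk13, the leak potassium channel of microglia, at 0.45 (-0.68 to 1.82).

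Over all genes, the 12 highest ratios included 11 genes with no sham UMI. Some of these counts rested on the mixed nuclei. Prr5l went from 59 injury UMIs to 18 when these nuclei were left out. Ctnna3, an alpha-catenin gene with 698 CPM in the other injury nuclei, had 149 UMIs and 114 without the mixed nuclei. Genes little changed by this were Xylt1, a xylosyltransferase gene (0 sham UMIs and 73 injury UMIs, 71 without the mixed nuclei), Igf1 (55 and 52), Ddx31, an RNA helicase gene (57 and 52), Vps13c, a lipid transfer protein gene (57 and 50), and Gas7 (53 and 48). Myo1e, a myosin of the cell membrane, had 1 sham UMI and 143 injury UMIs in 42 of 127 nuclei, a ratio of 22.0-fold (3.89 to 876), and 124 UMIs without the mixed nuclei. At 500 UMIs it was expected in 22.4% of injury microglia, 1.64% of sham microglia and 10.9% of injury oligodendrocyte-like nuclei.

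The 12 lowest ratios were Sp3, Cd47, Il15, Bank1, Gramd1a, Leng8, Gpr34, Gkap1, Ralb, Top1, Stau1 and Tent2, all at -2.06 or below. Sp3, a transcription factor gene, had 13 sham and 10 injury UMIs (-3.08, -4.43 to -1.77), and Cd47, the signal by which cells resist engulfment, 9 and 12 (-2.28, -3.65 to -0.86). Il15 (12 and 16 UMIs) encodes a cytokine and was at -2.28 (-3.46 to -1.07), or -1.61 (-2.99 to -0.075) from 7 and 15 UMIs without the mixed nuclei, and Bank1, a scaffold of immune receptor signalling, at -2.25 (-3.47 to -0.98). Ralb, a small GTPase gene (-2.11, -3.53 to -0.62), was at -1.57 without them, with an interval of -3.21 to 0.30 that included no difference. Apart from Gpr34 these rest on 8 to 13 sham UMIs, and genes at the end of an order of 2227 are the ones that counting error favours.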

How the data were processed

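The authors made the deposited counts with Cell Ranger 6.0.2 on GRCm38 (mm10) and analysed them with Seurat 4.0, per the labels and the submitters' processing notes. The deposited values are UMI counts per gene and nucleus, without normalization. Whether introns and strand were used, and the annotation release, were not given in the sources used here. One library per group (Sham, Injury) was analysed, each a pool of nuclei.

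UMIs were summed over the microglial nuclei of a library. CPM were given exact Poisson intervals, shares Clopper-Pearson intervals and ratios exact conditional binomial intervals, at 95%. Genes with at least 20 UMIs over both libraries were compared, with a prior of 0.5 UMI for calls. A fold against 0 UMIs used a floor of 3 UMIs. Calculations were tested on simulated data. No doublet caller was run, and nuclei with transcripts of other cell types were left out as an alternative. Expected shares at 500 UMIs were computed from each nucleus. Astrocyte-like and oligodendrocyte-like nuclei had at least 5 marker UMIs and at least 0.5% of a total under 10000. Nuclei with neuronal UMIs had at least 1 UMI of Slc17a6, Gad1 or Gad2.

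The members and lists were chosen with earlier results of these data known. Genes were named as rule genes, as genes the study follows, as the 4 most counted and the 4 with the largest ratio of each list, as the 12 highest and 12 lowest ratios over all genes, and as the 15 highest over other nuclei. The list genes H2-Ab1, H2-Eb1, Cd74 and others with few UMIs were named after their values were seen. Some genes that this rule names are not reported here. Promoter windows came from RefSeq, and 5 are printed. Python 3.11.15, numpy 2.4.6, scipy 1.17.1, pandas 2.3.3, matplotlib 3.10.9, R 4.3.3 and edgeR 4.0.16 (TMM factors) were used.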

Additional observations from a re-analysis of the deposited data

How the results depend on the processing

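No paired analysis was possible because sham and injury had 1 library each, so no replicate could be left out either. The share of microglia was 3.60-fold to 4.77-fold higher in injury under all 7 alternatives for the choice of nuclei. None of these left Ly86 out of the rule. The disease-associated and lysosomal lists were higher in nuclei with Cd9 under each alternative run for the Cd9 split. The homeostatic difference of that split, 0.06 with all UMIs, was -0.09 at 500 UMIs, with intervals that included no difference in both. Of 178 list medians recomputed, 30 had the other sign, 9 of them under TMM. The exclusions of nuclei with oligodendrocyte, macrophage or all 3 kinds of transcripts were chosen after seeing the data.

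With TMM factors, 540 genes were 2-fold higher and 53 lower. The medians of 9 lists turned from below to above 0: homeostatic 0.069, microglial genes outside the rule 0.20, rule genes 0.38, lysosome 0.40, lipid handling 0.10, engulfment 0.39, transcription factors 0.19, purinergic receptors 0.23 and neuron markers 0.28. Complement moved to 0.97 and Fc receptor and Syk signalling to -0.15. Thinned to 500 UMIs, 436 genes were lower, and medians were rule genes 0.33, homeostatic -0.23, disease-associated 1.31, complement -0.12, transcription factors -0.079, cytokines 0.19, purinergic receptors -0.78 and oligodendrocyte markers 1.37. With a rule share of at least 0.5%, 166 genes were higher and 111 lower. Medians were -0.21 for homeostatic genes, -0.074 for transcription factors and 3.17 for cytokines. The cytokine median was then over 3 genes, against 1.34 over 4 genes in the results above. With a prior of 2 UMIs, 92 were higher and 317 lower, with disease-associated 0.89, cytokines 0.25 and oligodendrocyte markers 0.82.

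With at least 10 UMIs per gene, 759 were higher and 549 lower, with lysosome 0.57, lipid handling 0.57, transcription factors -0.015 and cytokines 0.47. With at least 1 UMI, 1541 were higher and 5219 lower, with disease-associated 0.96, lysosome 0.29, lipid handling 0.11, complement -0.24, cytokines -0.29, purinergic receptors 0.23 and oligodendrocyte markers 1.10. The disease-associated median was 2.84 with at least 5 rule UMIs, 1.58 with totals under 3000, 1.45 without nuclei of other cell types and 1.80 by the mean CPM of single nuclei. Lipid handling was 0.067 without nuclei of other cell types, and purinergic receptors 0.19 without macrophage transcripts. Fewer genes or nuclei entered under the stricter limits, and the cause of the other moves was not tested. The sham level of most disease-associated genes rests on 0 to 8 UMIs.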
